A study of Rattus norvegicus with 33 samples.

Results

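The macrophage genes described here are 10 transcripts, Adgre1, C1qa, C1qb, C1qc, Cd163, Siglec1, Fcgr2b, Cd68, Csf1r and Mrc1, followed in prostates of male Sprague-Dawley rats. Members were the non-control probes that the scanner files name for one of these genes (Adgre1 also under its older name Emr1), with the brightest kept probe standing for a gene. All 10 genes had a probe that passed the filter on dim probes, among 23345 genes tested. Each of 33 samples was hybridised to a single-colour Agilent array. A level is the log2 processed signal minus the log2 75th percentile of that array, so levels of 1 gene can be compared between arrays, and levels of different genes cannot.

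The 10 groups combined a neonatal exposure, adult implants and an age in postnatal days (PND). EB+T+E rats received estradiol benzoate (EB, a long-acting form of estradiol), injected subcutaneously at 2.5 mg/kg on PND 1, 3 and 5, and carried 2 testosterone (T) inserts and 1 estradiol (E) insert of silastic tubing from PND 90. EB rats received the same injections and 3 empty inserts, T+E rats received vehicle and the hormone inserts, and control rats received vehicle and 3 empty inserts. At PND 100 and PND 145 each group had 3 arrays, except for 4 of EB at PND 145. At PND 30, before any implant, EB and control had 4 arrays each. The labels give 3 to 4 litters per group without tying arrays to litters, and whether arrays share a litter is not given. The p-values rest on 1 spread per gene, pooled over the arrays of all 10 groups, so the SE does not follow the spread of the groups compared. Whole prostate is the tissue in the labels, and dorsolateral prostate in the series title.

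Macrophages are phagocytes that arise from embryonic precursors or from blood monocytes and depend on signalling through the CSF1 receptor. In tissues they clear dying cells, bind antibody-coated material and secrete complement, and they collect in the prostate during inflammation. In bulk tissue a change in the number of macrophages and a change in RNA per macrophage cannot be told apart, and this holds for every result below.

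The probes that stood for the members were 60 bases long. The results turn on the C1q chains, which varied together, and on Cd163, so 3 of these probes are shown. Within groups Cd163 followed the C1q chains less closely than they followed each other, and so did Mrc1. Positions are those of the file headers, on build rn4. The C1qa probe lies at chr5:155662578-155662637 on the minus strand, the C1qc probe at chr5:155656638-155656697 on the minus strand, and the Cd163 probe at chr4:160423704-160423763 on the plus strand.
C1qa: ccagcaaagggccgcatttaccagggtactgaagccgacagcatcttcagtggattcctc
C1qc: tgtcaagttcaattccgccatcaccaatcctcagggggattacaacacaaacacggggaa
Cd163: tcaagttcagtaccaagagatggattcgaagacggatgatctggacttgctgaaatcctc
Csf1r had a second probe, which was well above background on 0 of 33 arrays and was not used. C1qa, C1qb and Fcgr2b were each printed as 10 spots per array, and the SD of those spots had a median over arrays of 0.061 for C1qa, 0.103 for C1qb and 0.107 for Fcgr2b on the log2 scale. In the same order, that SD was over 0.3 on 1, 3 and 4 arrays and reached 0.34, 0.69 and 0.86. The largest value for Fcgr2b was on control 2 of PND 30.

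Because the members moved together, their promoters were searched for 3 short motifs on both strands, in the window from 250 bases before to 50 bases after the start in RefSeq (GRCr8), which held 7 of the 10 members. The PU box (GAGGAA), the core bound by the myeloid factor PU.1, was found in 5 of 7 member promoters and in 27.6% of all 33469 promoters. It was found for Adgre1, C1qb, Cd68, Csf1r and Mrc1, and these letters were not in the windows of C1qa and Cd163. An interferon-stimulated response element (GAAA, any 2 bases, GAAA) was found in 1 of 7, that of Adgre1, where it did not overlap the PU box, and in 3.92% of all promoters. The estrogen response element (GGTCA, any 3 bases, TGACC) was found in 0 of 7 and in 0.0269% of all promoters. These matches are descriptions of letters. Of the promoters that held a PU box, 4 are printed with the box in capitals: Adgre1 at chr9:2329190-2329489 (plus strand), C1qb at chr5:154407778-154408077 (minus strand), Cd68 at chr10:54882392-54882691 (minus strand) and Mrc1 at chr17:82157475-82157774 (plus strand).
Adgre1: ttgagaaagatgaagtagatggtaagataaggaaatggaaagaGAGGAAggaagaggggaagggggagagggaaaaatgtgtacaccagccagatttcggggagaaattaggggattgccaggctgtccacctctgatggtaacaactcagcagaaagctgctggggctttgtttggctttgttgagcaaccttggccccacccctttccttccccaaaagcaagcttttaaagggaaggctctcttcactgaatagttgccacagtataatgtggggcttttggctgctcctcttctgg
C1qb: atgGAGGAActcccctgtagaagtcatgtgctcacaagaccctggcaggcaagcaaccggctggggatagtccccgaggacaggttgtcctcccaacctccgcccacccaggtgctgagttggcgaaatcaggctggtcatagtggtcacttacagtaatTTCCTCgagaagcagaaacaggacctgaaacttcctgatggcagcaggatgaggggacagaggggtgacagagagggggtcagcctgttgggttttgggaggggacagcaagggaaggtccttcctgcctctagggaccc
Cd68: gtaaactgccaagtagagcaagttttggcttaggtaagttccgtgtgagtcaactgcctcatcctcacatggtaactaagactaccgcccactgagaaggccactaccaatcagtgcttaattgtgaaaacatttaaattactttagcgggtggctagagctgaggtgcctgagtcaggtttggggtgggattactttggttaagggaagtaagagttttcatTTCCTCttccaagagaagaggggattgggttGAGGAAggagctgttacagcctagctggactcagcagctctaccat
Mrc1: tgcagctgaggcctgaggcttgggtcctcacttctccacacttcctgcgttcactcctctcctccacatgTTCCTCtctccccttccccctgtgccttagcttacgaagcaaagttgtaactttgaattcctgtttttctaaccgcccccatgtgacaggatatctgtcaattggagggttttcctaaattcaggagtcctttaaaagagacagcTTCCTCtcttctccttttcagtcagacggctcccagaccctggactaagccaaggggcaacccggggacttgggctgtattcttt

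Depth on an array is signal over background. Of the 58717 spots of an array, 61.5 to 68.9% were well above background, 0 were saturated, and the 75th percentile of the processed signal lay between 1694 and 4737. Members were well above background on all 33 arrays except Mrc1, which was so on 30 and missed control 2 of PND 30 and controls 2 and 3 of PND 145. Slides 1 to 4 held 8 arrays each with several groups, and slide 5 held 1 array, EB 4 of PND 145.

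Several arrays stood apart from their group for the members as a set. At PND 100, EB 1 was the lowest of its group for 10 of 10 members, and EB+T+E 1 was the highest of its group for 9 of 10. T+E 2 was the highest of its group for 10 of 10 members at PND 100, and a different animal with that number was so at PND 145. Control 1 was the highest control for 10 of 10 at PND 30 and at PND 145. EB+T+E 1 of PND 100 also had a mean log2 level of -0.38 over 10 prostate epithelium genes, against 2.11 and 2.08 in EB+T+E 2 and 3. EB 1 of PND 100 had a mean level of -8.78 over 6 neutrophil genes, against -3.87 and -3.33 in EB 2 and 3, and the part of these other cells in the results was not tested.

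**Figure D1:**
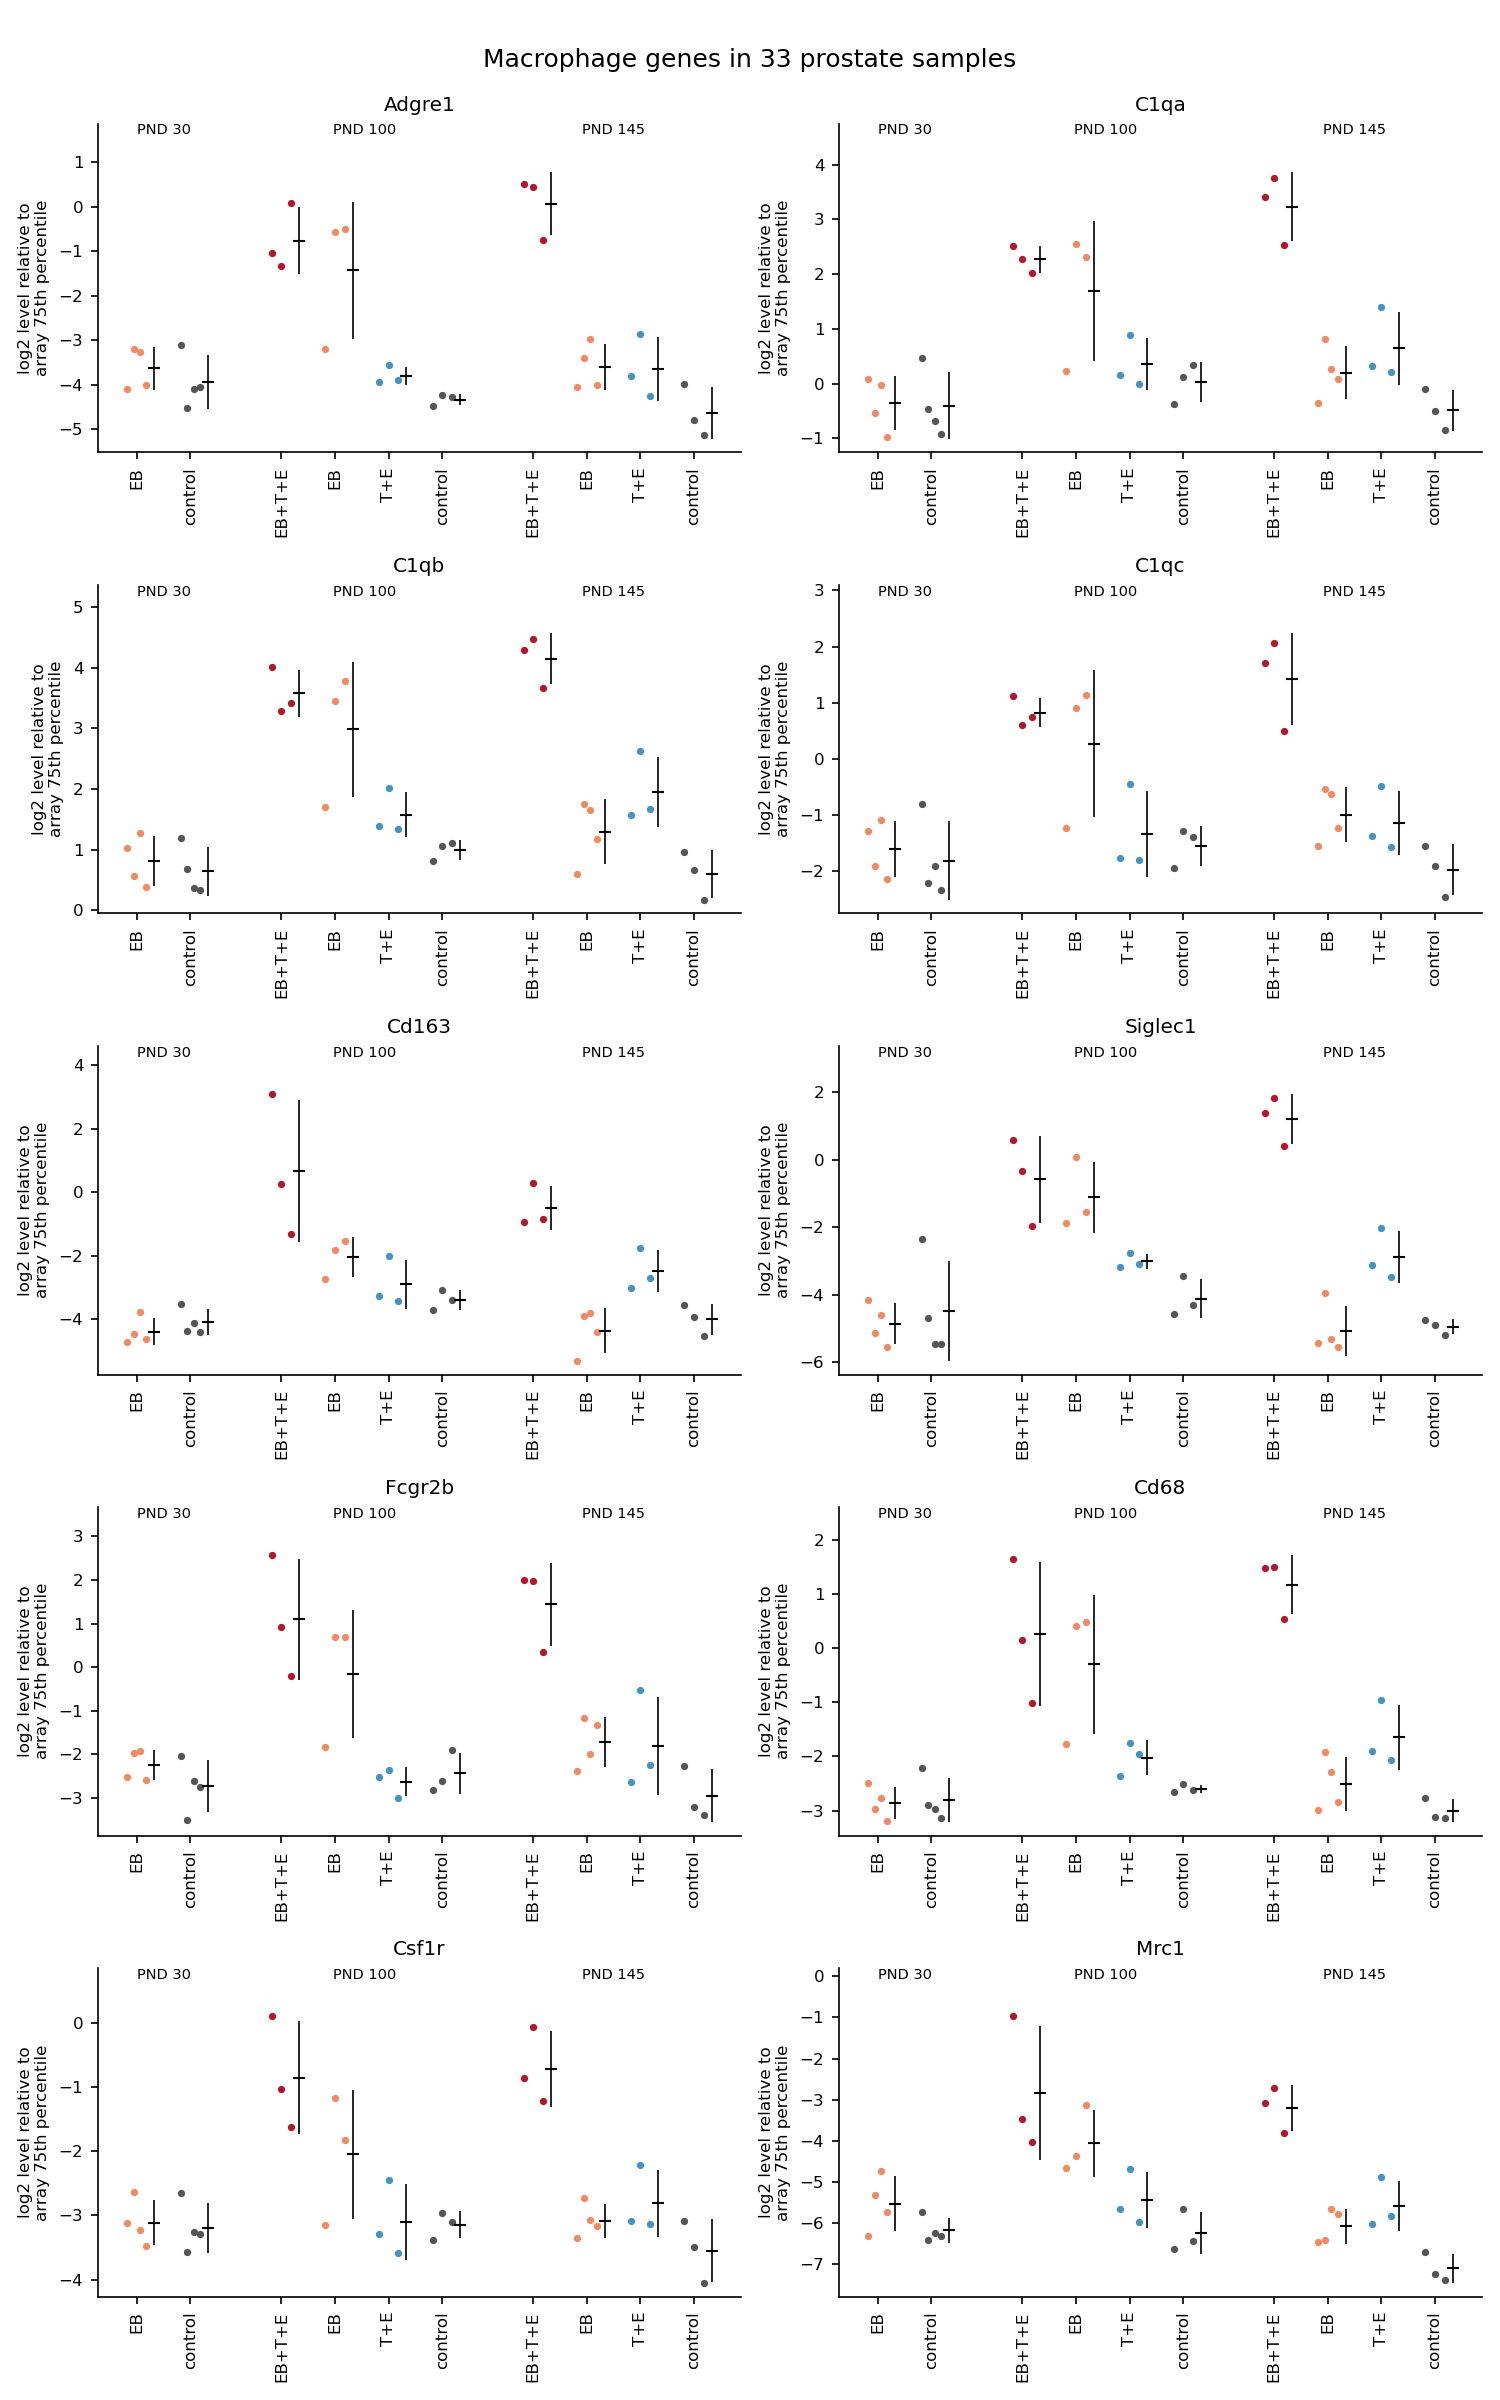
Log2 level relative to the array's 75th percentile (vertical axis) of each of the 10 macrophage genes, with 1 point per array and groups on the horizontal axis by age. Black marks are means ± SD. Both EB+T+E groups lie above the controls of their age for every gene, and EB 1 of PND 100 lies below the other 2 arrays of its group.

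The comparison of EB+T+E with control at PND 145 addressed the combined effect of neonatal EB and adult hormones at the longer implant time. All 10 members rose, by log2 ratios of 2.83 (Csf1r) to 6.14 (Siglec1) with a median of 3.81, which is 14.0-fold (limma, adjusted p between 1.17e-06 and 0.000291, n = 3 each). Of all genes tested, 14.7% were called higher in this comparison, and the median log2 ratio of all genes was -0.24. The arrays of the groups did not overlap for any of the 10 members, against 20.7% of all genes.

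The C1q chains A, B and C, which assemble into the recognition molecule of the classical complement pathway and are made mainly by macrophages, rose to similar extents. C1qa had levels of 3.40, 3.76 and 2.54 in EB+T+E rats, against -0.10, -0.51 and -0.85 in controls of PND 145. C1qb had levels of 4.29, 4.47 and 3.67 in EB+T+E rats, against 0.97, 0.66 and 0.17 in controls. C1qc had levels of 1.70, 2.06 and 0.49 in EB+T+E rats, against -1.56, -1.91 and -2.45 in controls. In each case the lowest treated array was EB+T+E 3 and it still exceeded the highest control. The log2 ratios were 3.72 ± 0.48 for C1qa, 3.54 ± 0.41 for C1qb and 3.39 ± 0.52 for C1qc (SE).

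Among the surface receptors for glycans and scavenged ligands, Siglec1 (sialoadhesin, a sialic acid-binding receptor of tissue macrophages) had the largest ratio of the 10 members. Siglec1 had levels of 1.38, 1.83 and 0.40 in EB+T+E rats, against -4.73, -4.90 and -5.20 in controls of PND 145. The groups were far apart relative to their spread, with a log2 ratio of 6.14 ± 0.69 (SE, adjusted p = 1.17e-06 by limma, n = 3 each). Cd163, the scavenger receptor for haemoglobin bound to haptoglobin, had levels of -0.95, 0.30 and -0.85 in EB+T+E rats, against -3.56, -3.91 and -4.54 in controls. Its log2 ratio was 3.51 ± 0.67 (SE). Mrc1, the mannose receptor, had levels of -3.08, -2.72 and -3.81 in EB+T+E rats, against -6.70, -7.23 and -7.39 in controls, of which 1 of 3 was well above background. The log2 ratio of Mrc1 was 3.90 ± 0.57 (SE).

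Fcgr2b, the inhibitory receptor for IgG, had levels of 2.01, 1.97 and 0.34 in EB+T+E rats, against -2.26, -3.21 and -3.39 in controls of PND 145, a log2 ratio of 4.39 ± 0.65 (SE). Csf1r, the receptor for the growth factors CSF1 and IL-34, had levels of -0.86, -0.07 and -1.22 in EB+T+E rats, against -3.09, -3.50 and -4.06 in controls. Its log2 ratio of 2.83 ± 0.44 (SE) was the smallest among the members. Adgre1, an adhesion receptor used as a macrophage marker in rodents, had levels of 0.51, 0.45 and -0.75 in EB+T+E rats, against -4.00, -4.79 and -5.13 in controls, a log2 ratio of 4.71 ± 0.55 (SE). Cd68, a glycoprotein of endosomes and lysosomes, had levels of 1.47, 1.49 and 0.54 in EB+T+E rats, against -2.76, -3.12 and -3.14 in controls, a log2 ratio of 4.17 ± 0.51 (SE). For these 4 genes as well, no treated array fell within the range of the controls.

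EB+T+E at PND 145 was also above each single exposure of its age. Against T+E, 10 of 10 members rose, with log2 ratios from 1.99 (Cd163, adjusted p = 0.0342) to 4.08 (Siglec1, adjusted p = 0.0002) by limma, where 9.69% of all genes were called higher. Against EB, 10 of 10 rose, from 2.37 (Csf1r) to 6.26 (Siglec1), where 10.6% of all genes were called higher. The median ratio over members was 2.57 against T+E and 3.10 against EB. The interaction of EB with T+E, which asks whether the combined ratio exceeded the sum of the single ratios on the log2 scale, was called for 1 of 10 members (0.638% of all genes were called higher). That member was Siglec1, at 4.20 ± 0.94 (SE, adjusted p = 0.0311 by limma). The other 9 members had interactions between 1.35 (Mrc1) and 2.69 (Adgre1) that did not pass, and 9 of 10 had an unadjusted p under 0.05, as did 13.5% of all genes. The Siglec1 interaction did not pass on leaving out any 1 of 8 of the 13 arrays tried, with adjusted p-values up to 0.127 without EB+T+E 2.

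**Figure D2:**
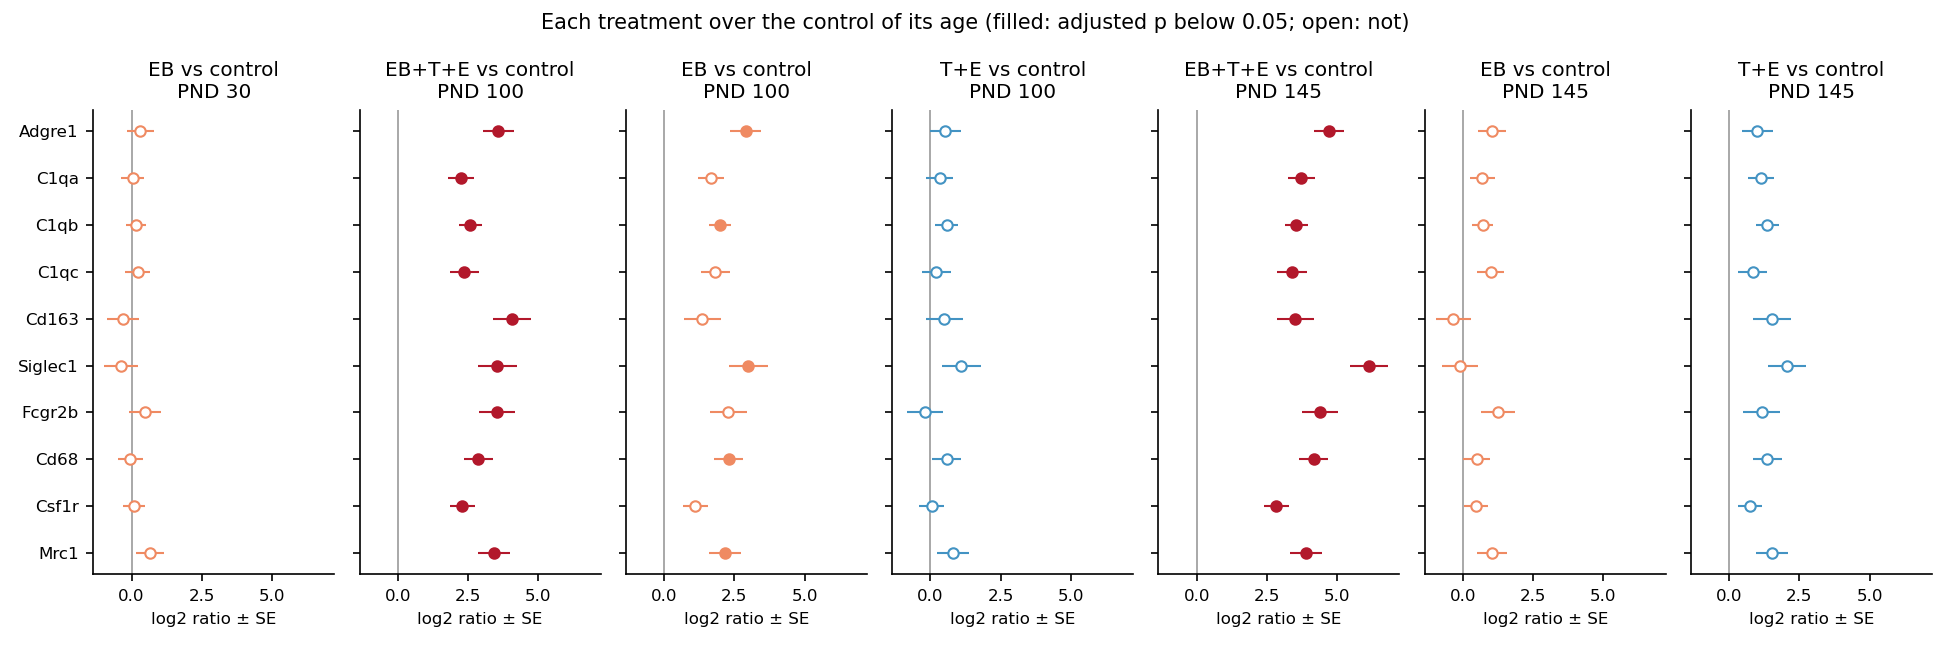
Log2 ratio ± SE (horizontal axis) of the 10 macrophage genes (vertical axis) in each treatment over the control of its age, 1 panel per comparison. Filled points passed an adjusted p of 0.05 by limma. All 10 points are filled for EB+T+E at both ages, 5 for EB at PND 100, and 0 in the other 4 panels.

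Single exposures at PND 145 gave no called member. EB against control had 0 of 10 called (0.57% of all genes were called) and 0 with an unadjusted p under 0.05 by limma (15.2% of all genes), with log2 ratios from -0.35 (Cd163) to 1.23 (Fcgr2b). Of the 10 ratios, 8 were above 0. The arrays did not overlap for 2 members, C1qc and Mrc1, both higher in EB, against 8.81% of all genes. Mrc1 was well above background on 1 of 3 controls of PND 145. Within slides 3 and 4, 10 and 9 members were above 0, with medians of 1.15 and 1.26. These pairs leave out EB 1, the lowest of its group for 9 members, EB 4, and control 1, the highest control for 10. Over all arrays of both groups the median was 0.69. Siglec1, one of the 2 with a ratio below 0, in EB rats had levels of -5.42, -3.96, -5.32 and -5.55, against -4.73, -4.90 and -5.20 in controls, so the groups overlapped. T+E against control also had 0 of 10 called (0.381% of all genes were called), although all 10 ratios were above 0, from 0.74 (Csf1r) to 2.06 (Siglec1), and 6 of 10 had an unadjusted p under 0.05, as did 9.85% of all genes. The arrays of T+E and control did not overlap for 6 of 10 members, Mrc1 among them, against 9.12% of all genes. C1qb in T+E rats had levels of 1.57, 2.62 and 1.66, against 0.97, 0.66 and 0.17 in controls of PND 145, a log2 ratio of 1.35 ± 0.41 (SE, adjusted p = 0.167 by limma).

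At PND 100, EB+T+E rats already had higher levels of all 10 members than controls. The log2 ratios ran from 2.24 (C1qa) to 4.06 (Cd163) with a median of 3.13, or 8.78-fold (limma, adjusted p between 0.000633 and 0.00486), where 5.41% of all genes were called higher. C1qa had levels of 2.52, 2.28 and 2.02 in EB+T+E rats, against -0.37, 0.11 and 0.33 in controls of PND 100. Cd163 had levels of 3.09, 0.25 and -1.31 in EB+T+E rats, against -3.70, -3.08 and -3.38 in controls. Mrc1 had levels of -0.98, -3.48 and -4.03 in EB+T+E rats, against -6.62, -5.67 and -6.43 in controls. The 3 treated arrays were thus close together for C1qa (SD 0.252) and far apart for Cd163 (SD 2.23) and Mrc1 (SD 1.63), while no treated array fell within the controls for any of the 10 members. Without EB+T+E 1 the median ratio was 2.42 and 10 of 10 were called. The arrays did not overlap for 11.2% of all genes. In a fit of only these 2 groups, 0 members and 0 of all 23345 genes were called by limma, while 10 of 10 members had an unadjusted p under 0.05.

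In EB over control at PND 100, 5 of 10 members rose, where 1.81% of all genes were called higher: Adgre1, C1qb, Siglec1, Cd68 and Mrc1. Adgre1 had levels of -3.21, -0.58 and -0.51 in EB rats, against -4.49, -4.24 and -4.29 in controls of PND 100, a log2 ratio of 2.91 ± 0.55 (SE, adjusted p = 0.0107 by limma). Siglec1 had levels of -1.88, 0.08 and -1.55 in EB rats, against -4.57, -3.46 and -4.31 in controls, a log2 ratio of 3.00 ± 0.69 (SE, adjusted p = 0.0271). Cd68 had levels of -1.78, 0.41 and 0.47 in EB rats, against -2.66, -2.52 and -2.62 in controls, a log2 ratio of 2.30 ± 0.51 (SE, adjusted p = 0.0252). For Adgre1 and Cd68, EB 2 and EB 3 stood well above the controls and EB 1 lay nearer to them. For Siglec1, EB 1 and EB 3 lay close together above the controls, and EB 2 was higher still. The other 5 members had log2 ratios from 1.10 (Csf1r) to 2.28 (Fcgr2b) that did not pass. Of the 10 members, 9 had an unadjusted p under 0.05, against 22.2% of all genes, and 8 did not overlap with control, against 11.5% of all genes. The count of called members changed with single arrays. It was 0 without control 1, 3 without control 2 and 1 without control 3. It was 9 without EB 1, 2 without EB 2 and 0 without EB 3. The median ratio over members ran from 1.65 to 2.60 in these fits. Adjustment is over all genes, and the share of all genes called in these fits is not given here. In a fit of only these 2 groups the count was 0, with 9 of 10 at an unadjusted p under 0.05 (0 of all genes called).

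T+E at PND 100 had 0 of 10 members called (0.193% of all genes were called) and 0 with an unadjusted p under 0.05 by limma (8.33% of all genes), with log2 ratios from -0.19 (Fcgr2b) to 1.10 (Siglec1). Of these ratios 9 were above 0, and the arrays did not overlap for 4 members, Adgre1, C1qb, Siglec1 and Cd68, all higher in T+E, against 10.4% of all genes. Within slides 1, 2 and 3, 6, 10 and 4 members were above 0. EB+T+E exceeded T+E for 10 of 10 members, from 1.92 (C1qa) to 3.72 (Fcgr2b), where 2.66% of all genes were called higher. That count was 0 without EB+T+E 1, 1 without T+E 1, and 0 in a fit of only these 2 groups. Adjustment is over all genes, and the share of all genes called in these fits is not given here. On leaving out 1 array the median ratio over members ran from 1.83 to 2.78. EB+T+E against EB had 1 of 10 called, Cd163 at 2.71 ± 0.67 (SE, adjusted p = 0.0334 by limma), where 0.711% of all genes were called higher. Cd163 had levels of 3.09, 0.25 and -1.31 in EB+T+E rats, against -2.74, -1.82 and -1.53 in EB rats. Its ratio was 1.4997 with an adjusted p of 0.225 without EB+T+E 1, and it did not pass without any single EB array. The interaction of EB with T+E at PND 100 had 0 of 10 called (0% of all genes) and 1 of 10 with an unadjusted p under 0.05 by limma (8.63% of all genes).

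At PND 30 neonatal EB alone gave 0 of 10 called members (0.0471% of all genes were called) and 0 with an unadjusted p under 0.05 by limma (11.9% of all genes). Ratios ran from -0.37 (Siglec1) to 0.64 (Mrc1). Siglec1 had levels of -4.17, -5.13, -4.60 and -5.55 in EB rats, against -2.34, -4.69, -5.45 and -5.47 in controls. Control 1 was the highest of the 8 arrays for Siglec1, and without it the log2 ratio was 0.34.

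Differences between ages were tested within the same fit. Control prostates of PND 100 against PND 30 had 0 of 10 members called (2.24% of all genes were called), with ratios from -0.39 (Adgre1) to 0.70 (Cd163). Controls of PND 145 against PND 100 had 0 of 10 called (0% of all genes), with ratios from -0.87 (Mrc1) to -0.30 (Adgre1). The arrays did not overlap for 3 members, Siglec1, Cd68 and Mrc1, all lower at PND 145, against 4.35% of all genes. Mrc1 was well above background on 1 of 3 controls of PND 145. In both comparisons of controls 0 members had an unadjusted p under 0.05 by limma, against 13.9% and 2.48% of all genes. The ratio of EB to control was larger at PND 100 than at PND 30 by a median of 1.73 over members, with 0 of 10 called (0.0214% of all genes) and 7 at an unadjusted p under 0.05 (8.4% of all genes). Without EB 1 of PND 100 the number of called members was 6 and the median 2.41. The share of all genes called in that fit is not given here. The ratio of EB to control at PND 145 minus that at PND 100 had a median of -1.22, with 0 of 10 called (0% of all genes) and 4 at an unadjusted p under 0.05 (4.3% of all genes). The ratio of EB+T+E to control at PND 145 minus that at PND 100 ran from -0.56 (Cd163) to 2.60 (Siglec1), with 0 of 10 called (0.326% of all genes) and 2 at an unadjusted p under 0.05 (11.5% of all genes). For T+E the same difference had a median of 0.77, with 0 of 10 called (0.0257% of all genes) and 0 at an unadjusted p under 0.05 (4.55% of all genes).

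Over all 10 groups the order of mean levels was alike among members. EB+T+E of PND 145 was highest for 8 members and EB+T+E of PND 100 for the other 2, Cd163 and Mrc1, while EB of PND 100 came next after both EB+T+E groups for all 10. Control of PND 145 was lowest for 8, EB of PND 145 for Siglec1 and EB of PND 30 for Cd163. Of the 90 pairs of neighbours in these orders, 6 had arrays that did not overlap, so most neighbouring groups cannot be ranked beyond their spread. The share over all genes is not given for such pairs. Among those 6 pairs were EB+T+E of PND 145 above EB+T+E of PND 100 for C1qa and EB of PND 100 above T+E of PND 145 for Siglec1. EB of PND 100 above T+E of PND 100 for Mrc1 was another.

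**Figure D3:**
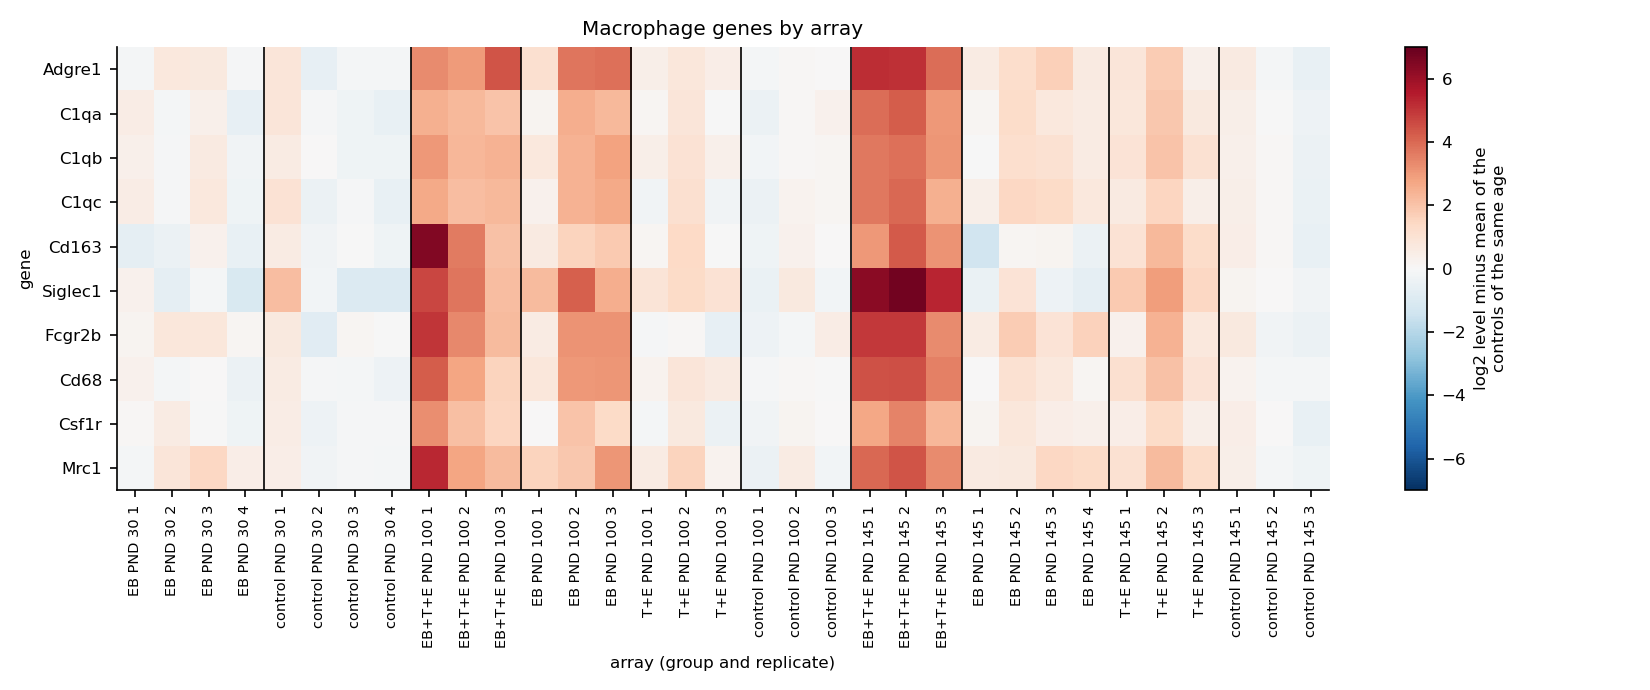
Level of each macrophage gene (rows) on each of the 33 arrays (columns, by group and replicate) minus the mean of the controls of the same age, on the log2 scale, with red above and blue below. The EB+T+E arrays are red in all rows, EB 1 of PND 100 is paler than EB 2 and 3, and the deepest colours are Cd163 in EB+T+E 1 of PND 100 and Siglec1 at PND 145.

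The members varied together across arrays, which share tissue, labelling and scaling. Pearson correlations of the 45 pairs of members over 33 arrays were between 0.775 and 0.986, with a median of 0.913. After the group means were removed, the median was 0.760 and the range 0.282 (Adgre1 with Cd163) to 0.956 (C1qa with C1qc). The C1q chains stayed close to each other on this measure, at 0.942 to 0.956. Cd163 had 0.585 to 0.669 with them and was closest to Mrc1, at 0.886. Mrc1 was looser than Cd163 with the C1q chains, at 0.494 for C1qa, 0.622 for C1qb and 0.580 for C1qc. Groups of wide spread weigh most on this measure. Cd163 and Mrc1 spread most in EB+T+E of PND 100 (SD 2.23 and 1.63), where EB+T+E 1 was highest for both, at 3.09 and -0.98. The part of that array in the correlation was not tested.

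The 10 named genes outside the set that followed the members' mean most closely over the 33 arrays included Igsf6, Ccl6, Clec4a1, Tyrobp, Clec10a, Itgb2, Cybb, Apobec1 and Fyb1. The correlations of the 10 were between 0.971 and 0.982, and between 0.865 and 0.936 after group means were removed. Ccl6 is a chemokine of myeloid cells, Tyrobp a signalling adaptor and Cybb a subunit of the phagocyte oxidase.

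Growth and lineage factors of macrophages were followed in 15 genes, of which 14 rose in EB+T+E over control at PND 145, 6 at PND 100, and 2 in EB over control at PND 100. The median log2 ratios of the list were 1.94, 1.39 and 0.99 in these 3 comparisons, where the medians of all genes were -0.24, -0.089 and -0.059. Medians include genes not well above background in controls. In EB+T+E rats of PND 145, Irf8, a factor of the monocyte lineage, rose by a log2 ratio of 4.70, Irf5 by 3.69 and Runx1 by 2.46. Spi1, which encodes PU.1, was well above background on 0 of 3 controls and was at least 11.5-fold higher in EB+T+E rats (adjusted p = 1.7e-05 by limma). This and every bound below sets the treated mean against, per control array, the higher of the dimmest probe well above background and the gene's own signal. Csf1, a ligand of Csf1r, had a log2 ratio of 1.18 (adjusted p = 0.0449).

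Of 11 monocyte chemokines and their receptors, 9 rose in EB+T+E over control at PND 145, 7 at PND 100, and 0 in EB over control at PND 100, with median log2 ratios of 3.51, 2.85 and 1.43. At PND 145 Ccl3 rose by a log2 ratio of 7.86 and Ccl6 by 3.51, while Ccl12 was at least 72.2-fold and Ccl4 at least 13.6-fold higher. Of the 2 genes that did not pass at PND 145, the receptor Cx3cr1 had a ratio of -0.70. The log2 of the summed level of the 11 genes was 6.07 to 6.58 in EB+T+E rats, against 6.49 to 6.71 in controls of PND 145. That sum follows the brightest probes of the list. The mean log2 level of the 11 genes was -0.64 in EB+T+E rats, against -4.41 in controls of PND 145. Of 25 other macrophage genes tested, 21 rose in EB+T+E over control at PND 145, 16 at PND 100 and 9 in EB over control at PND 100, with medians of 3.06, 2.37 and 1.67. The signalling adaptors Fcer1g and Tyrobp rose by 3.85 and 3.73 in EB+T+E rats of PND 145, the integrin subunit Itgam by 4.29 and Cybb by 3.99. The 4 that did not pass at PND 145 were Cd14 (1.10), Cd86 (0.90), Lgals3 (0.47) and Mertk (-0.38).

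Of 14 products used to describe macrophage activation, 11 rose in EB+T+E over control at PND 145, 5 at PND 100, and 1, Tnf at 3.49, in EB over control at PND 100, with medians of 4.09, 1.60 and 1.30. At PND 145 the chemokines Cxcl9 and Cxcl10 rose by log2 ratios of 4.07 and 4.34, and Il1b by 7.30. Arg1 had a ratio of -1.47 that did not pass. Of 6 Fc receptor genes, Fcgr2b included, 5 rose in EB+T+E over control at PND 145, 4 at PND 100, and 1 in EB over control at PND 100. The activating receptors Fcgr1a and Fcgr2a rose by 3.15 and 3.63 in EB+T+E rats of PND 145, and Fcgrt, which recycles IgG, had a ratio of 0.67 that did not pass. Of 10 classical complement genes, the C1q chains included, 10 rose at PND 145 and 9 at PND 100 in EB+T+E, and 5 in EB at PND 100, with medians of 3.63, 2.23 and 1.88. C2 rose by 4.12 and the protease C1s by 3.36 in EB+T+E rats of PND 145.

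Markers of other cell types moved in the same comparisons, and their part in the macrophage results was not tested. In EB+T+E over control at PND 145, 12 of 12 T and NK cell genes, 6 of 8 B and plasma cell genes, 6 of 6 neutrophil genes and 6 of 6 fibroblast genes rose, and 4 of 10 prostate epithelium genes fell. At PND 100 the counts in EB+T+E were 3, 0, 6 and 3 that rose and 4 that fell, and in EB they were 5, 2, 1 and 1 that rose and 0 that fell. Of all genes, 14.7%, 5.41% and 1.81% were called higher in EB+T+E at PND 145, EB+T+E at PND 100 and EB at PND 100. In the same order, 20.6%, 7.2% and 0.874% of all genes were called lower. Cd4, which rat macrophages also carry, rose by 2.74 and Jchain of plasma cells by 9.30 in EB+T+E rats of PND 145. Pbsn, a prostate secretory product, fell by 1.36 there and was well above background on every array of both groups. The log2 of the summed level of the T and NK cell genes was 2.53 to 4.49 in EB+T+E rats, against -1.01 to -0.32 in controls of PND 145. For the prostate epithelium genes it was 5.55 to 6.61 in EB+T+E rats, against 7.29 to 7.50 in controls. At PND 100 the T and NK cell genes summed to 1.09 to 1.81 in EB+T+E rats and 0.16 to 3.48 in EB rats, against -0.70 to -0.19 in controls. The neutrophil genes summed to -1.50 to 1.89 in EB+T+E rats and -6.04 to 0.18 in EB rats, against -6.36 to -5.06 in controls of PND 100. Cxcr2 and Csf3r of neutrophils were well above background on 0 of 3 controls of PND 145 and were at least 25.6-fold and 14.6-fold higher in EB+T+E rats. For EB+T+E at PND 145, EB+T+E at PND 100 and EB at PND 100, 5, 1 and 2 of 5 dendritic cell genes, 4, 3 and 1 of 5 pan-leukocyte genes, 4, 2 and 1 of 5 endothelial genes, 0, 1 and 0 of 6 mast cell genes and 0, 1 and 0 of 4 red blood cell genes rose. Of 5 smooth muscle genes 2, 1 and 0 fell, and of 7 seminal vesicle products 2, 3 and 0 fell and 1, 0 and 0 rose. The summed level of the seminal vesicle products was 4.69 to 5.51 in EB+T+E rats, against 6.33 to 7.70 in controls of PND 145. In EB over control at PND 145, 1 dendritic cell gene rose and 2 seminal vesicle products fell. Of all genes, 0.193% were called higher and 0.377% lower there. In T+E over control at both ages, and in EB over control at PND 30, 0 genes of these lists were called.

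**Figure D4:**
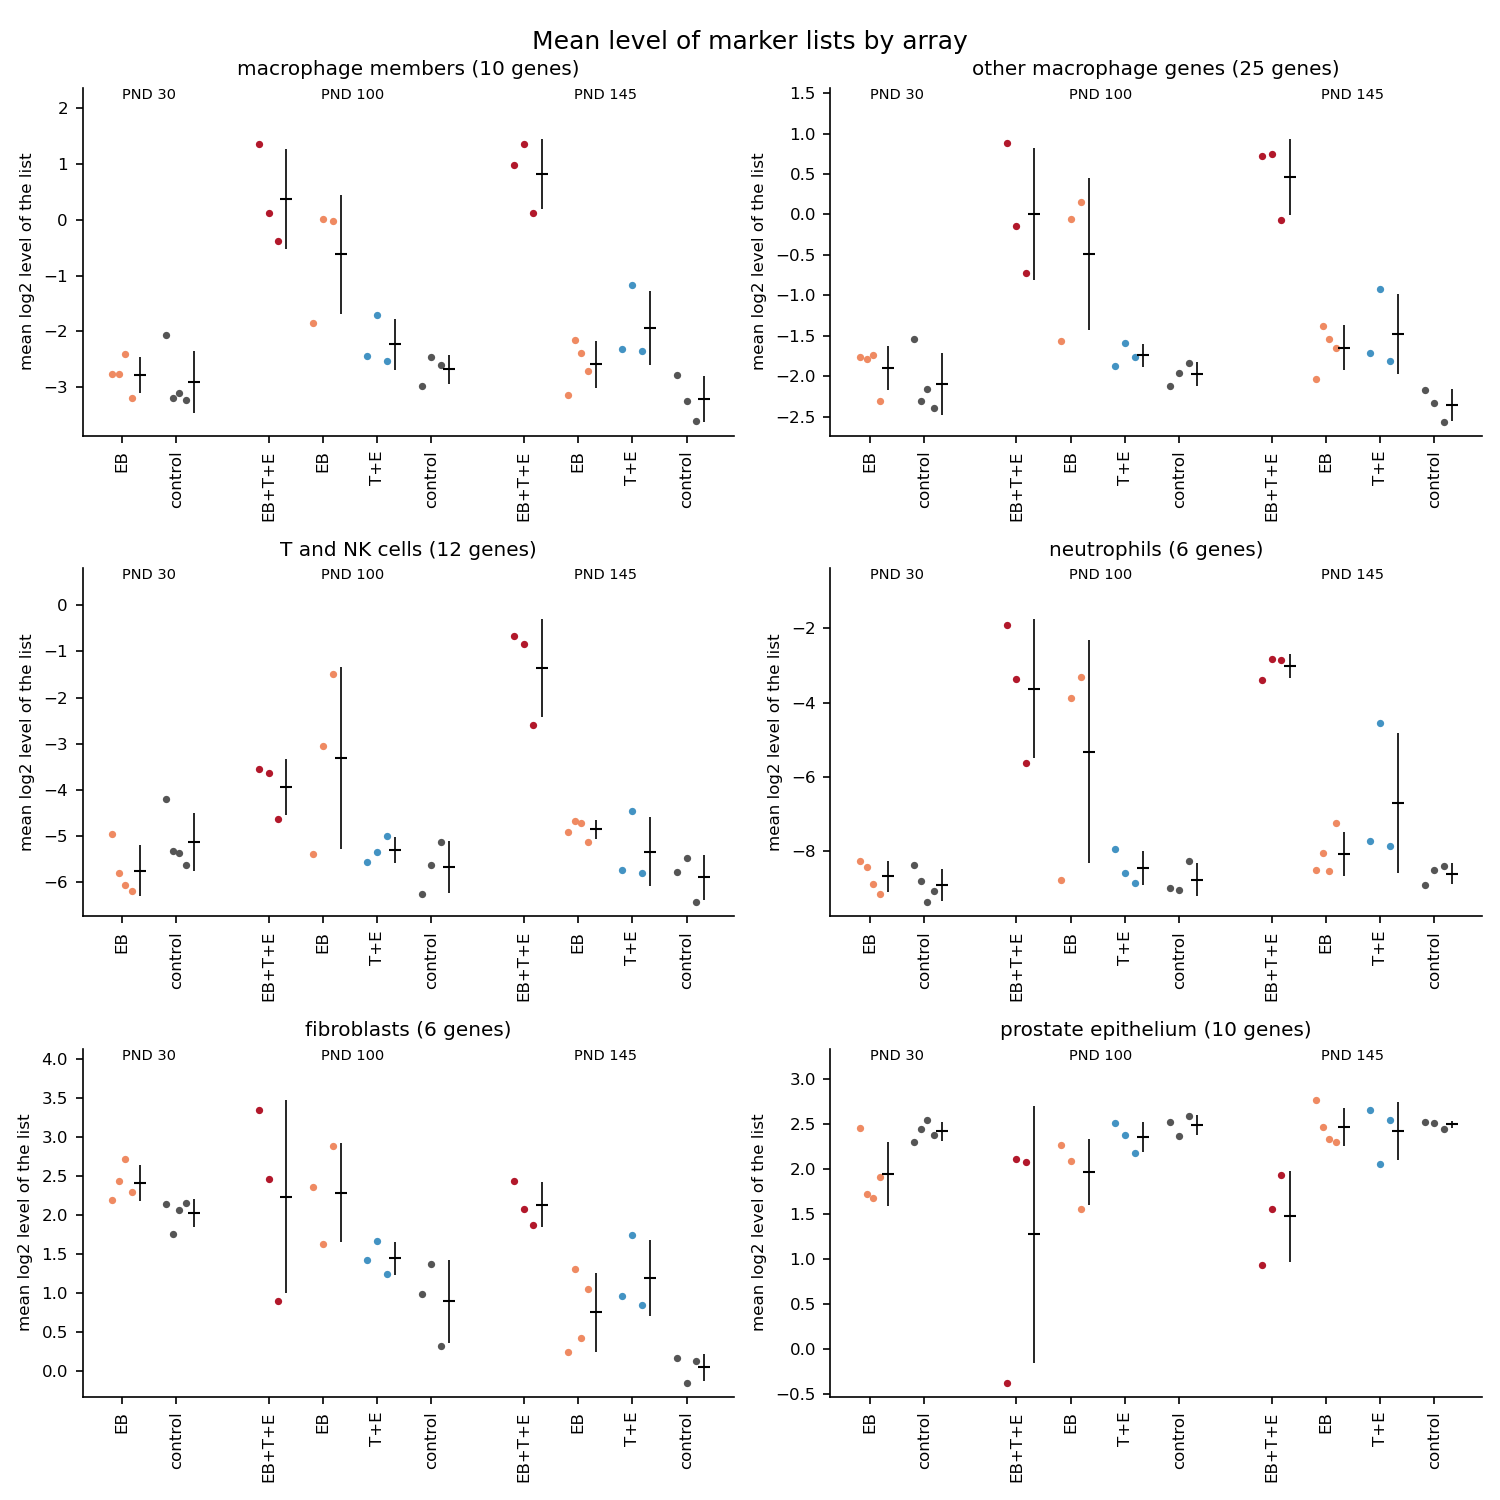
Mean log2 level (vertical axis) of 6 gene lists on each array, by group (horizontal axis), with black marks for means ± SD. The macrophage lists are highest in EB+T+E, as are T and NK cell and neutrophil genes at PND 145, and EB+T+E 1 of PND 100 has the lowest epithelial mean, at -0.38.

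Each slide carried arrays of several groups, so ratios could also be taken within a slide, between 1 array of each group. EB+T+E was above control for 10 of 10 members on both slides that held the pair at PND 100 (slides 1 and 2, medians 3.75 and 2.98) and at PND 145 (slides 3 and 4, medians 4.39 and 3.62). EB was above control at PND 100 for 10 of 10 members on slides 1 and 2, with medians of 2.32 and 3.05. EB 1 and EB+T+E 3 of PND 100 were on slide 4, which held no control of that age, so these ratios leave out both. EB 1 was the lowest of its group for 10 members and EB+T+E 3 for 7. Control 2 of PND 100, the highest control for 7 members, was left out too. At PND 145 the EB+T+E pairs leave out EB+T+E 1 and control 1, the highest control of that age for 10 of 10 members. At PND 30 the number of members above 0 in EB over control was 0, 10, 5 and 9 on slides 1 to 4. With slide as a block, 8 of 10 members were called for EB over control at PND 100, and the counts for EB+T+E over control were 10 at both ages. The share of all genes called in that fit is not given here.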

How the data were processed

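Total RNA (500 ng, RIN 8.0 or above) was labelled with Cy3, per the labels' protocols. The deposited files hold spot intensity from Agilent Feature Extraction 12.0.0.7 (protocol GE1_1200_Jun14), background-subtracted and not normalized between arrays, per the file headers. From these, log2 processed signal minus the log2 75th percentile of each array was computed, outlier spots were dropped, spots of a probe were averaged, and a probe entered when it was well above background on 3 or more of the 33 arrays, which held for 30542 of 45598. The brightest probe stood for a gene, giving 23345 genes, of which 18326 have a name. The authors' deposited table of normalized intensity served as an alternative, its scaling being unstated in the labels. The 75th percentile of its columns was 619.36 to 619.52. The lowest correlation of its log values with the values used here was 0.99998, so it was not an independent check.

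All 10 groups entered 1 limma 3.58.1 fit (R 4.3.3, trended and robust eBayes), with Benjamini-Hochberg adjustment at 0.05 over all genes in each of 19 comparisons. The fit was tested on simulated data. The number of arrays limits the precision. The members, gene lists and tests were chosen with earlier results of these data known. Genes named from other lists were up to 4 with the smallest p in the comparison described, with Csf1 and genes that did not pass named besides, chosen after their values were seen. Some genes that this rule selects are not reported here. Alternatives covered scaling, background, filter, probes, slide, replicate number, array weights, the groups fitted, and each array left out.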

Additional observations from a re-analysis of the deposited data

Results flagged for a closer look

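Siglec1 in EB rats of PND 145 had 1 array, EB 2, far above the other 3. Its gap to the nearest of them was 0.852 of the range of the group, above Dixon's 95% critical value for 4 samples. The levels were -5.42, -3.96, -5.32 and -5.55. Of 30 sets of 1 gene in 1 group of 4 arrays, 1 passed this limit, and chance alone passes about 1 in 20.

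The effect of T+E on Siglec1 at PND 145 passed the test of a difference between EB-exposed and vehicle-injected rats. The interaction was 4.20 ± 0.94 on the log2 scale (SE, adjusted p = 0.0311 by limma), from a ratio of 6.26 for EB+T+E over EB and of 2.06 for T+E over control. The call was lost on leaving out any 1 of 8 of the 13 arrays, with adjusted p up to 0.127, and with the filter of 17 arrays.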

How the results depend on the processing

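Members called for EB over control at PND 100 were 5, against 3 with normexp background correction, 8 with slide as a block, 10 with array weights, 0 with only the groups compared, and 0 to 9 on leaving out 1 array. For the interaction at PND 145 (1) they were 2 with normexp, 0 with the filter of 17 arrays, 10 with array weights, 2 with only the groups compared and 0 to 2 on leaving out 1 array. With only the groups compared, 0 were called at PND 100 for EB+T+E over control, over T+E and over EB. Array weights called 1 for EB at PND 30, 1 for T+E at PND 100, 1 for EB and 2 for T+E at PND 145, and 6 for the EB effect of PND 100 minus PND 30. They put the median interaction at PND 100 at -0.50. The causes were not tested. Adjustment is over all genes, and the share of all genes called is not given beside these counts or those with 1 array left out.

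On leaving out 1 array, counts ran 0 to 10 for EB+T+E over T+E and 0 to 1 for EB+T+E over EB and for the interaction, all at PND 100, and 0 to 6 for the EB effect of PND 100 minus PND 30. Medians ran 2.42 to 3.32 for EB+T+E over control at PND 100, -0.45 to 0.69 for the interaction at PND 100, 1.40 to 2.41 for the EB effect of PND 100 minus PND 30, and -1.91 to -0.79 for that of PND 145 minus PND 100. Counts for EB+T+E over control stayed at 10 at both ages.

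Small ratios changed sign. With normexp, EB at PND 30 gave -0.039 for C1qa, -0.034 for C1qc and -0.13 for Csf1r. Siglec1 in EB at PND 145 was 0.33 with slide as a block and 0.12 with the replicate block. Array weights gave 0.0060 for Cd68 in EB at PND 30, 0.092 for Fcgr2b in T+E at PND 100 and -0.15 for Adgre1 in EB+T+E over EB at PND 100. On leaving out 1 array, EB at PND 30 ran -0.13 to 0.33 for C1qa, -0.17 to 0.15 for Cd68, -0.074 to 0.27 for Csf1r and -0.70 to 0.34 for Siglec1. T+E at PND 100 ran -0.24 to 0.44 for C1qc, -0.29 to 0.28 for Csf1r and -0.37 to 0.079 for Fcgr2b. EB+T+E over EB at PND 100 ran -0.22 to 1.13 for Adgre1, -0.16 to 1.00 for C1qa, -0.040 to 1.00 for C1qb, -0.20 to 0.99 for C1qc, -0.18 to 1.19 for Cd68 and -0.034 to 1.24 for Siglec1. Siglec1 in EB at PND 145 ran -0.49 to 0.044.

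In no comparison was the correlation of deviations over 0.1 for every same-numbered pair (range -0.44 to 0.46 over 13 comparisons), so the numbers were not taken to pair samples. The replicate block gave 4 called members in place of 5 for EB at PND 100 and changed no other count.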
